A study of Mus musculus with 14 samples.

Results

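The genes described here are 47 genes of G2 and mitosis, the last part of the cell cycle, measured in the thymus of mice given estradiol or genistein. They were named as a list, and all probe sets annotated to one of them and to no other gene were taken. Of the 47 genes, 44 had at least 1 such probe set, 78 probe sets in all of the 22690 on the array. Ccnb1, Cdca8 and Espl1 were not analysed here. A low-signal filter, set on the mean over all arrays, kept 71 of the 78 probe sets and 43 of the genes, among 13575 probe sets and 8212 genes in the whole series. The 7 dim probe sets were the only one of Cenpe, both extra ones of Kif23, and the dimmest one each of Bub1, Cdc20, Cdca3 and Top2a.

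Estradiol is the main ovarian estrogen, and genistein is a soy isoflavone that binds estrogen receptors. In the estradiol groups, mice received 125 ng of estradiol in 0.02 ml of corn oil under the skin each day, and thymus RNA was taken on day 2, 3 or 6. In the genistein groups, mice ate a purified diet with 1500 ppm of genistein for the same times. The control group was untreated and was taken at day 0. All groups were female C57BL/6 mice that had been ovariectomized at 26 days of age and put on a phytoestrogen-free diet before treatment began at 30 days. Each group had 6 mice, pooled by 3 into 2 independent arrays, so there were 6 arrays with estradiol, 6 with genistein and 2 controls. No array came from untreated mice on days 2, 3 or 6, so treatment, age and time on the experiment cannot be told apart in a comparison with control. Corn oil injections went with estradiol alone, and they cannot be told apart from it.

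Entry into mitosis is driven by Cdk1 bound to a cyclin, after which Aurora, Polo and Nek kinases build the spindle. The spindle checkpoint holds the anaphase-promoting complex back until each kinetochore is attached, and that complex with Cdc20 then marks securin and the B cyclins for destruction. Most of these genes are transcribed together in late cycle by the MuvB complex with B-Myb and FoxM1, which is recruited through a promoter element called the CHR (cell cycle genes homology region) and helped by NF-Y at CCAAT boxes. In the thymus, division is most active in early thymocytes before and just after they pass the first T cell receptor checkpoint, and most double-positive thymocytes are small cells at rest. In RNA from whole tissue, fewer dividing cells and less of a transcript per cell cannot be told apart.

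RefSeq promoters (build GRCm38.p6) were held for 39 of the 47 genes, each with 250 bases before and 50 after the annotated start. Ccna2, Aurkb, Kif20a, Tpx2, Cdc25c, Smc4, Incenp and Pbk had no entry in the table used. The promoters of Cdk1, Ccnb2, Ube2c and Birc5 are shown from 250 bases before to 20 bases after the start. The first 3 belong to genes that stood lower on every estradiol array than on the controls. The fourth belongs to the member that stood highest with estradiol. Mad2l1, Melk, Nusap1 and Ncaph, with neither CHR nor CCAAT box in their promoters, also stood lower on every estradiol array. The promoters shown are read 5′ to 3′ on the gene's strand, with the CHR (TTTGAA on either strand) and CCAAT boxes (on either strand) in capitals. Cdk1 lies at chr10:69352893-69353162 on the minus strand, Ccnb2 at chr9:70421535-70421804 on the minus strand, Ube2c at chr2:164769679-164769948 on the plus strand and Birc5 at chr11:117848987-117849256 on the plus strand.
Cdk1: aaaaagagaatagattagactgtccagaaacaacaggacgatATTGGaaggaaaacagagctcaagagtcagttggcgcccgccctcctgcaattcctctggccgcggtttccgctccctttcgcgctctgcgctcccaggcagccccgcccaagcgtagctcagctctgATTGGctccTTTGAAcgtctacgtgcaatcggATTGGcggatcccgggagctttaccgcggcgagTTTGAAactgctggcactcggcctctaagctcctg
Ccnb2: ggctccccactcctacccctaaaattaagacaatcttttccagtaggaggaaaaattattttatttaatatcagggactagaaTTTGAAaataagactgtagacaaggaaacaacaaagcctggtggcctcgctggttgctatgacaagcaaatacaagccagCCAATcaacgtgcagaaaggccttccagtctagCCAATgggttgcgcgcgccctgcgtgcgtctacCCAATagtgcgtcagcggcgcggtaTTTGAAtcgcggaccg
Ube2c: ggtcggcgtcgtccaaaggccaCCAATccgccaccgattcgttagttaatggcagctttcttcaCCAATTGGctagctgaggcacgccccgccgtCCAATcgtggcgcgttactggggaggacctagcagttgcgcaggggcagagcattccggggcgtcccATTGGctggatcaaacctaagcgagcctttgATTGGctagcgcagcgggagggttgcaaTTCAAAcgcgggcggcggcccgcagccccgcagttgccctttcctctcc
Birc5: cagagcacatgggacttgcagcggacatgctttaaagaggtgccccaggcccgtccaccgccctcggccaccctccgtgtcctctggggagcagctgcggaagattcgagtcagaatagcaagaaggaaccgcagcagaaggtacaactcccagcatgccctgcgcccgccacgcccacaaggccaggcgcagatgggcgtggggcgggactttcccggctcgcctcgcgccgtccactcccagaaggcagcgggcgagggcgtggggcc

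Cdk1 had CHR letters starting 71 and 15 bases before the start and 3 CCAAT boxes. Ccnb2 had the CHR 167 bases before and 5 bases after the start, with its 3 CCAAT boxes at even spacing between them. Ube2c had the CHR on the opposite strand 29 bases before the start and 6 CCAAT boxes. In Birc5 neither set of letters was found in the 300-base window. Over the list, TTTGAA was found within 50 bases of the start in 25 of 39 genes (64.1%), against 5.72% of the 27025 genes with a promoter in the table, and anywhere in the 300 bases in 69.2% against 20.2%. At least 1 CCAAT box was found in 79.5% of the list and 41.1% of all genes, and both motifs in 64.1% and 7.97%. The share with the CHR near the start was 34.9% of 63 other mitosis genes. For the DNA replication genes, which are active in S phase, it was 10.0% of 40. Letters bound by E2F factors (TTTGGCGC, TTTCCCGC, TTTCGCGC or TTTGCCGC on either strand) showed the opposite order among these lists. They were found in 5.13% of the mitosis and G2 genes, 14.3% of the other mitosis genes, 35.0% of the DNA replication genes and 2.6% of all genes. A full estrogen response element, GGTCA and TGACC spaced by 3 bases, was found in 0 of the 39 genes and in 0.074% of all genes. CCAAT boxes on opposite strands can overlap, as 1 pair does in Ube2c. The E2F letters were found in Cdk1 and Ncapd2. These are matches of letters and say nothing of what is bound in thymus.

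**Figure D1:**
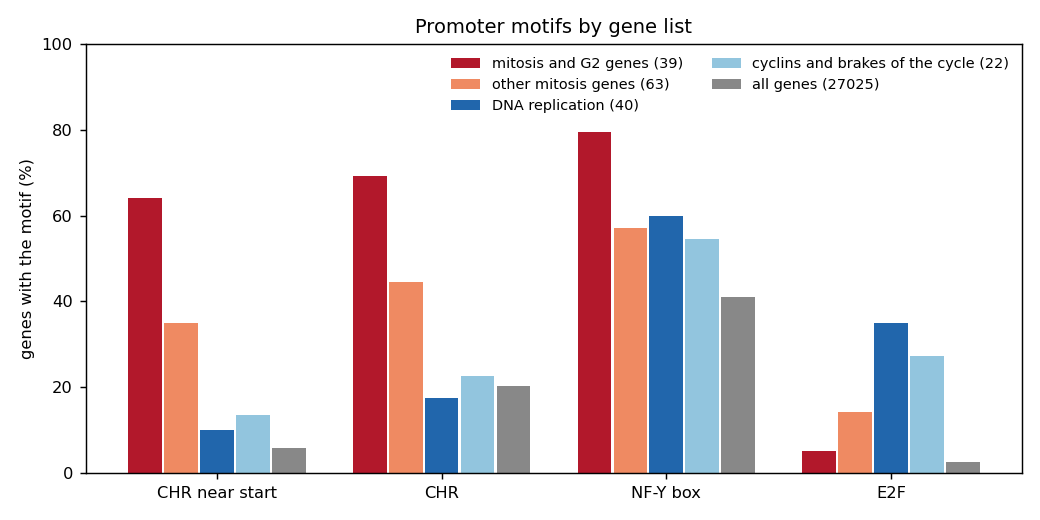
Percentage of genes whose promoter holds each motif, for the mitosis and G2 genes (39 with a promoter), other mitosis genes (63), DNA replication genes (40), cyclins and brakes of the cycle (22) and all genes (27025). NF-Y box means the CCAAT box, and near start means within 50 bases of it. The CHR is most frequent in the mitosis and G2 genes (64.1% near the start, against 5.72% of all genes) and the E2F letters in the DNA replication genes (35.0%).

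Values are MAS5 signals, brought to one scale for all 14 arrays because 3 estradiol arrays (day 2 replicate 2 and both of day 3) had been deposited at 1.489, 2.002 and 2.23 times the scale of the other 11. Changes are differences of log2(signal + 16), which understate the change of dim probe sets, and are given with the standard error of limma's fit. The thymocyte genes Rag1, Cd8a and Cd4 were bright on all arrays (medians 2391, 1836 and 766), and the tissue is labelled thymus. The ratio of 3′ to 5′ Gapdh signal, a mark of RNA quality, was 1.266 on estradiol day 2 replicate 1, 1.503 on genistein day 6 replicate 1, 1.105 on genistein day 3 replicate 1 and between 0.867 and 1.037 on the other arrays. The 2 control arrays differed from each other over the list. Control replicate 1 had a median log2 difference of -0.092 from the control mean and replicate 2 of 0.092. Every comparison with control rests on these 2 arrays, and the estradiol and genistein comparisons share them.

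With estradiol the mitosis and G2 genes stood lower as a block. Taken over the mean of days 2, 3 and 6, 41 of the 43 genes had a log2 change below 0, with a median of -0.26 (0.833 times the control level), against a median of 0.01 over all 8212 genes, of which 48.5% were below 0. Of the 43, 18 had all 6 estradiol arrays below both controls and 0 had all 6 above them. That pattern was met by 7.29% of all genes in the lower direction and 8.73% in the higher. No single member passed limma's test with Benjamini-Hochberg adjustment over all probe sets. Of the 71 member probe sets 0 were called at an adjusted p under 0.05, where 0.604% of all probe sets were called, and at an unadjusted p under 0.05 there were 27 lower and 1 higher (the third, dimmest probe set of Pttg1), or 39.4% of them, against 14.8% of all. The smallest adjusted p among them was 0.071, of the kinase Pbk. Without control replicate 1 there were 6 member calls (8.45% of 71, against 4.13% of all probe sets), and 35 genes rather than 18 had no overlap (24.5% of all genes did then). Without control replicate 2 the calls were 0 and 20 genes had no overlap (13.8% of all genes). Leaving out the 3 arrays of another deposited scale left 41 of 43 genes below 0 and 21 with no overlap (13.4% of all genes). Without the arrays of highest Gapdh ratio in each treatment 23 had none (10.5%).

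**Figure D2:**
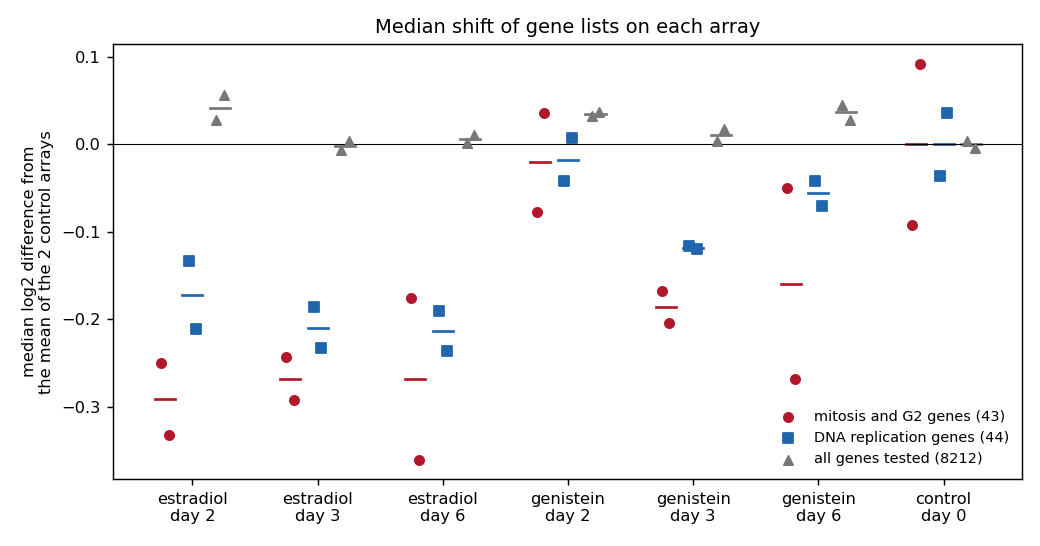
Median log2 difference from the mean of the 2 control arrays on each array, for the mitosis and G2 genes (circles), DNA replication genes (squares) and all genes tested (triangles), with group means as bars. For the mitosis and G2 genes the 6 estradiol arrays lie between -0.36 and -0.176, the 6 genistein arrays between -0.268 and 0.036 and the 2 controls at -0.092 and 0.092.

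The medians of the 3 estradiol days were close to each other. The median log2 change was -0.29 on day 2 (40 of 43 genes below 0), -0.25 on day 3 (40) and -0.27 on day 6 (39), while the medians of all genes were 0.04, -0.00 and 0.00. Called member probe sets were 0 on each day by limma, where 0.0884%, 0.0663% and 0.656% of all probe sets passed. At an unadjusted p under 0.05, day 2 had 21 lower and 1 higher (31.0%, against 12.3% of all), day 3 had 18 lower and 0 higher (25.4%, against 10.2%) and day 6 had 17 lower and 0 higher (23.9%, against 14.0%). Of the 43 genes 37 lay below control on all 3 days and only Birc5 above it on all 3, and these counts were not made over all genes.

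Cdk1, the kinase that triggers mitosis, had signals of 700 and 648 on day 2, 640 and 600 on day 3 and 585 and 560 on day 6 of estradiol, 779 and 831, 727 and 722 and 916 and 730 on the same days of genistein, and 763 and 899 in controls. All 6 estradiol arrays stood below all 8 others. Its log2 change was -0.41 ± 0.114 with estradiol (limma, adjusted p = 0.119) and -0.08 ± 0.114 with genistein (adjusted p = 0.816). The mitotic cyclin Ccnb2 had 614 and 598, 617 and 562 and 608 and 553 on days 2, 3 and 6 of estradiol, 754 and 854, 751 and 636 and 845 and 647 with genistein, and 710 and 904 in controls. Again no estradiol array reached any of the others. Its changes were -0.43 ± 0.133 with estradiol and -0.11 ± 0.133 with genistein (limma, adjusted p = 0.158 and 0.789).

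On their brightest probe sets, the other genes around Cdk1 had changes nearer 0. Ccna2, the cyclin of S and G2 phase, had 865 and 935, 771 and 786 and 776 and 692 on days 2, 3 and 6 of estradiol, 1068 and 1030, 851 and 851 and 919 and 849 with genistein, and 938 and 968 in controls. The estradiol arrays lay below both controls, with day 2 replicate 2 closest at 935 against 938. Its changes were -0.25 ± 0.0965 and -0.04 ± 0.0965 (limma, adjusted p = 0.255 and 0.897). Cks1b and Cks2, small subunits that bind Cdk1, had changes of -0.26 ± 0.141 and -0.29 ± 0.159 with estradiol. On the second probe set of Cks2, described below, all estradiol arrays lay below both controls. The phosphatases Cdc25b and Cdc25c, which activate Cdk1, stood at -0.08 ± 0.133 and -0.16 ± 0.155, and on the dim probe set of Cdc25c all estradiol arrays (40.1 to 59.7) lay below all genistein arrays (63.1 to 77.3), with controls of 66.7 and 54.8.

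Among the mitotic kinases, Pbk and Aurka stood lowest with estradiol. Pbk, a kinase active in mitosis, had 637 and 487 on day 2, 461 and 488 on day 3 and 537 and 458 on day 6 of estradiol, 715 and 844, 567 and 548 and 699 and 638 with genistein, and 687 and 824 in controls. Its change was -0.55 ± 0.13 with estradiol, the lowest of the 43 genes, and -0.18 ± 0.13 with genistein (limma, adjusted p = 0.071 and 0.619). Over the 14 fits that each left out 1 array, the estradiol change of Pbk ran from -0.6804 to -0.4231. Aurka, the Aurora kinase of centrosome and spindle, had 292 and 307, 250 and 255 and 228 and 215 on days 2, 3 and 6 of estradiol, 320 and 448, 280 and 302 and 378 and 326 with genistein, and 359 and 374 in controls. The estradiol arrays lay below both controls, and those of day 6 were the lowest of all 14. On the 3 days its changes were -0.28, -0.51 and -0.69 (each ± 0.16), the last with a limma adjusted p of 0.0753.

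Plk1, the Polo kinase, had a change near 0. It had 350 and 474, 437 and 399 and 418 and 420 on days 2, 3 and 6 of estradiol, 533 and 569, 395 and 378 and 456 and 351 with genistein, and 473 and 424 in controls. The groups overlapped, and the changes were -0.11 ± 0.135 with estradiol and -0.02 ± 0.135 with genistein (limma, adjusted p = 0.755 and 0.961). Nek2, a kinase that parts the centrosomes, and Melk stood at -0.35 ± 0.165 and -0.24 ± 0.14 with estradiol.

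The chromosomal passenger complex corrects wrong kinetochore attachments, and its members did not stand alike. Its kinase Aurkb had 269 and 270, 281 and 288 and 318 and 304 on days 2, 3 and 6 of estradiol, 327 and 318, 362 and 307 and 328 and 310 with genistein, and 345 and 416 in controls. All estradiol arrays were below both controls, and the change was -0.38 ± 0.116 (limma, adjusted p = 0.151). The scaffold Incenp stood at -0.25 ± 0.118 on its brightest probe set. Survivin, Birc5, had 686 and 648, 712 and 688 and 812 and 561 on days 2, 3 and 6 of estradiol, 798 and 692, 581 and 786 and 746 and 669 with genistein, and 598 and 583 in controls. It was the member with the highest change, 0.20 ± 0.146 with estradiol and 0.26 ± 0.146 with genistein (limma, adjusted p = 0.551 and 0.524), with 1 array of each treatment below both controls.

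Of the spindle checkpoint genes 3 of 4 had changes between -0.49 and -0.43 with estradiol. Mad2l1, the checkpoint protein that holds Cdc20, stood at -0.49 ± 0.16 (signals of 404 to 481 on the estradiol arrays, against 525 and 752 in controls). The checkpoint kinase Bub1 stood at -0.48 ± 0.166 (211 to 271 with estradiol, against 268 and 410 in controls), and the kinase Ttk at -0.43 ± 0.15 (90 to 112, against 128 and 158). Bub1b, which blocks the anaphase-promoting complex, was at -0.05 ± 0.122. In Mad2l1, Bub1 and Ttk control replicate 2 was clearly the higher control.

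The 4 genes of anaphase and protein destruction had a median change of -0.20 with estradiol. Cdc20, the activator of the anaphase-promoting complex, had 830 and 545, 751 and 674 and 726 and 635 on days 2, 3 and 6 of estradiol, 745 and 795, 844 and 753 and 802 and 666 with genistein, and 766 and 896 in controls. Estradiol day 2 replicate 1 lay between the controls, and the change was -0.26 ± 0.148 (limma, adjusted p = 0.436). Its ubiquitin-conjugating partner Ube2c stood at -0.25 ± 0.104, with all estradiol arrays (949 to 1159) below both controls (1208 and 1243). Securin, Pttg1, was the other member above 0 (0.04 ± 0.132), and Cdca3 stood at -0.16 ± 0.12.

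At the centromere, the histone variant Cenpa stood at -0.28 ± 0.144 with estradiol and Cenpf, a kinetochore protein, at -0.00 ± 0.145. Of the kinesins, Kif20a (-0.49 ± 0.194), which works in cytokinesis, Kif2c (-0.38 ± 0.154), which takes microtubules apart, and the spindle motor Kif11 (-0.34 ± 0.143) stood lower than Kif22 (-0.22 ± 0.121) and Kif4 (-0.09 ± 0.164), both chromosome motors. No difference between members was tested. Of the spindle proteins, the midzone bundler Prc1 stood at -0.35 ± 0.139, the Aurka activator Tpx2 at -0.31 ± 0.125, Nusap1 at -0.24 ± 0.103 and Hmmr at -0.17 ± 0.166.

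The cytokinesis gene Anln, which encodes the scaffold anillin of the contractile ring, stood low with both treatments. It had 218 and 215, 218 and 204 and 222 and 215 on days 2, 3 and 6 of estradiol, 218 and 264, 225 and 194 and 229 and 234 with genistein, and 275 and 355 in controls. All 12 treated arrays were below both controls. Its changes were -0.51 ± 0.129 with estradiol and -0.44 ± 0.129 with genistein (limma, adjusted p = 0.0936 and 0.328), and the difference of estradiol from genistein was -0.07 ± 0.0915. The estradiol change was -0.6831 without control replicate 1 and -0.3311 without control replicate 2, the higher one. Ect2, Kif23 and Racgap1, which set the cleavage plane, stood at -0.36 ± 0.186, -0.27 ± 0.171 and -0.24 ± 0.116 with estradiol.

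Top2a, the topoisomerase that untangles sister chromatids, had 1616 and 1384, 1551 and 1586 and 1671 and 1544 on days 2, 3 and 6 of estradiol, 1692 and 1996, 1642 and 1780 and 1743 and 1589 with genistein, and 1679 and 2094 in controls. The highest estradiol array, at 1671, was just below the lower control at 1679. Its change was -0.27 ± 0.113 (limma, adjusted p = 0.29). The condensin subunits Ncaph, Ncapd2, Smc4 and Smc2 stood at -0.33 ± 0.118, -0.15 ± 0.11, -0.14 ± 0.11 and -0.07 ± 0.135 with estradiol.

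**Figure D3:**
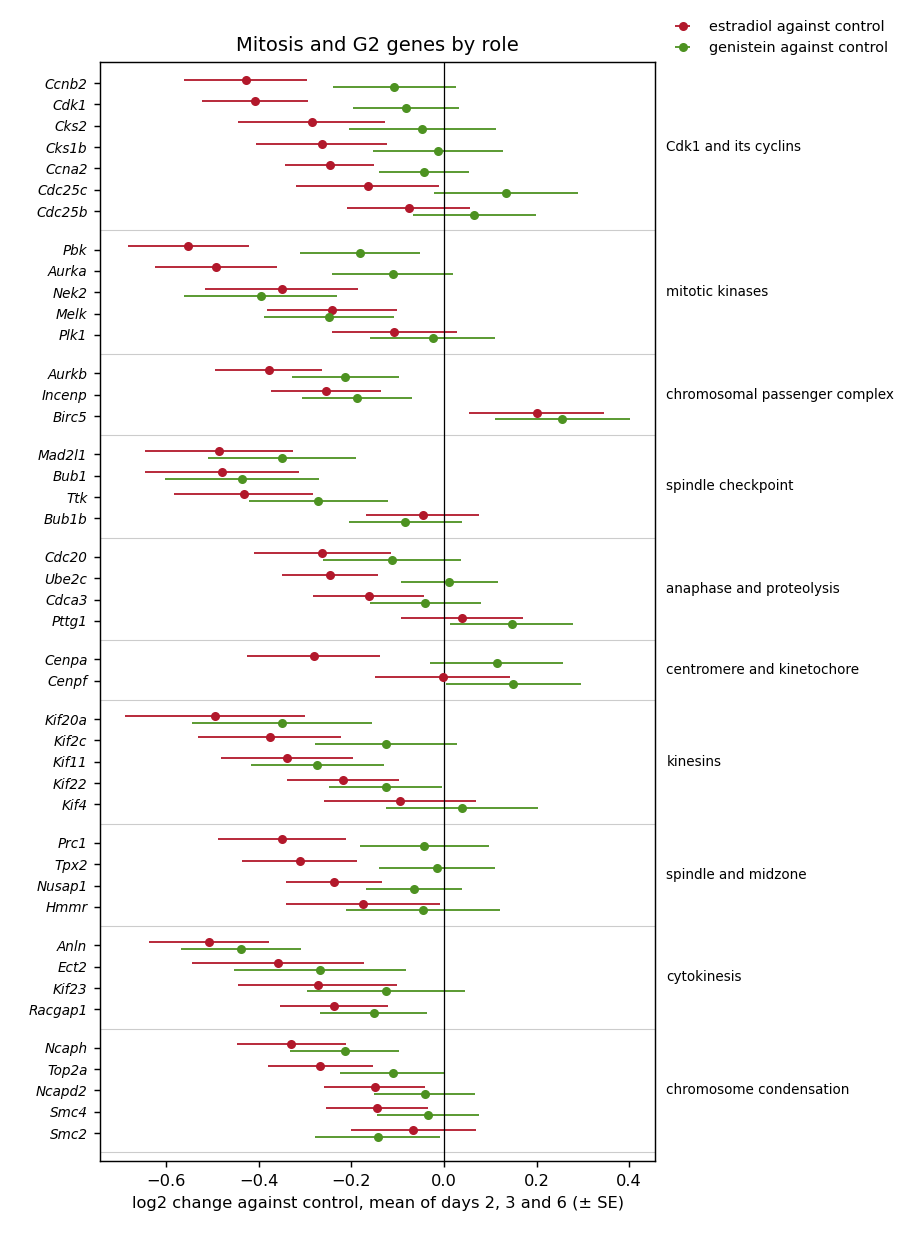
Log2 change against control over the mean of days 2, 3 and 6 with limma's standard error, for the 43 tested genes by role, with estradiol drawn above genistein. With estradiol 41 of 43 points lie below 0 and with genistein 35 of 43. Birc5 and Pttg1 lie above 0 with both treatments.

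**Figure D4:**
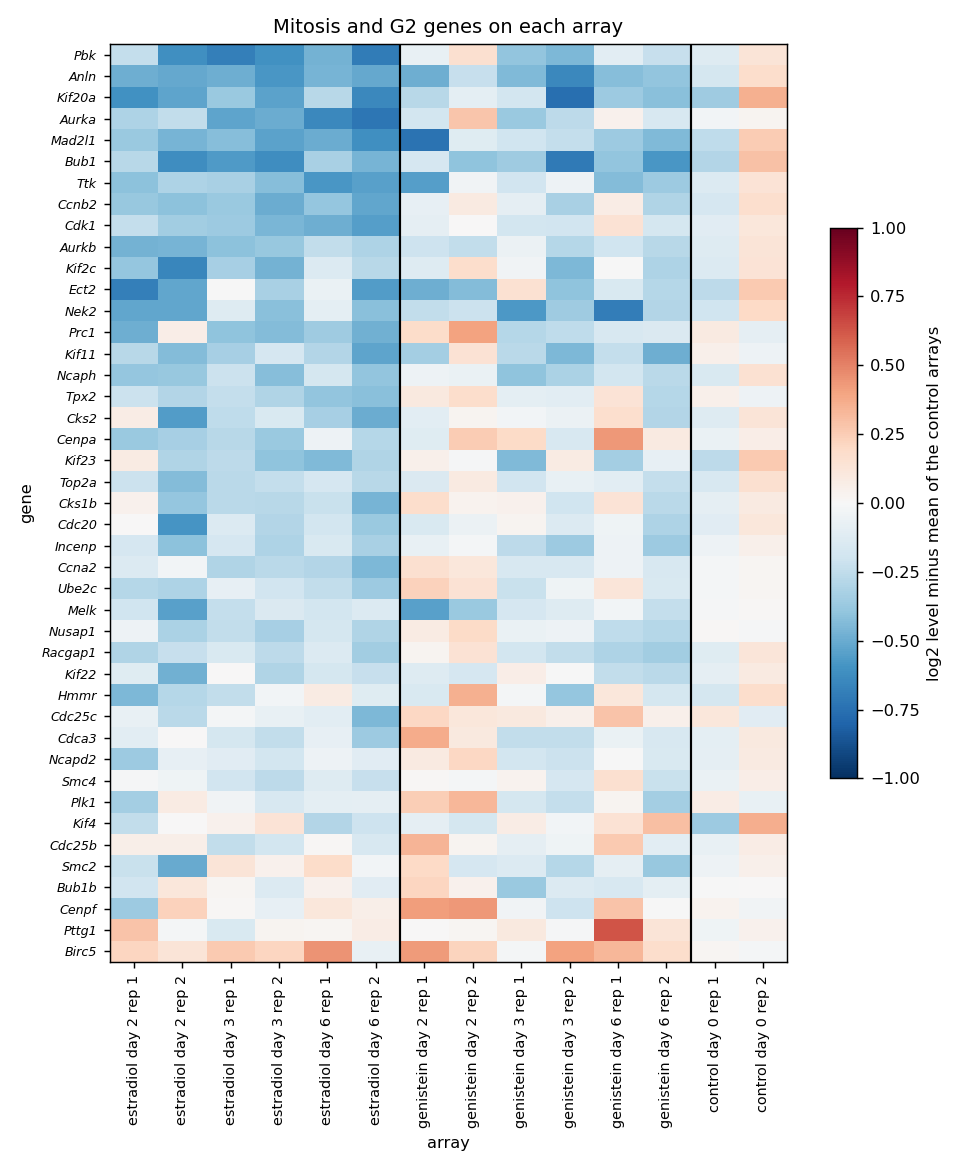
Log2 level of the 43 genes on each of the 14 arrays minus the mean of the 2 controls, with genes in the order of their change with estradiol and lines between the estradiol, genistein and control arrays. Blue marks levels below the control mean, which fill most of the 6 estradiol columns, and control replicate 2 is above replicate 1 for 35 of 43 genes.

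With genistein the members lay nearer to control. Over the mean of days 35 of 43 genes were below 0, with a median of -0.11 against 0.02 over all genes, and 6 genes (Cdc25b, Cdc25c, Ube2c, Cenpa, Cenpf and Kif4) stood above 0 with genistein and below it with estradiol. All 6 genistein arrays were below both controls for Nek2, Melk and Anln, 3 of 43 genes, a pattern met by 3.57% of all genes, and above both controls for 0 of 43, against 4.97% of all. Member probe sets called by limma were 0, where 0.0368% of all passed. At an unadjusted p under 0.05, 9 were lower and 0 higher, or 12.7%, where 11.1% of all probe sets passed in either direction. Counted by gene, 4 of 43 members were lower and 0 higher, against 353 lower and 561 higher of all 8212 genes. The list's median with genistein rests on the control arrays, being -0.215 without control replicate 1 and -0.004 without control replicate 2, and then 35 and 23 of 43 genes were below 0. Without control replicate 1 there was 1 member call (1.41% of 71, against 2.47% of all probe sets) and 17 genes had no overlap, where 19.9% of all genes had none.

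The genistein medians differed from day to day. On day 2 the median was 0.02, with 19 genes below 0 and 24 above, against 0.03 over all genes. On day 3 it was -0.18 (37 below) and on day 6 -0.15 (36 below), against 0.00 and 0.03 over all genes. By limma 0 member probe sets were called on days 2, 3 and 6, where 0.0147%, 0.00737% and 0.00737% of all were. At an unadjusted p under 0.05 there were 5 lower and 3 higher on day 2 (11.3%, against 11.8% of all), 9 lower on day 3 (12.7%, against 5.73%) and 10 lower and 1 higher on day 6 (15.5%, against 10.4%). On day 6 the arrays differed from each other, with medians of -0.05 and -0.268, and the first of them had the highest Gapdh ratio of the series.

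Beside Anln, 5 members had the smallest p for genistein, and none passed the test. The checkpoint kinase Bub1 had 271 and 211, 219 and 211 and 262 and 237 on days 2, 3 and 6 of estradiol, 294 and 248, 256 and 197 and 249 and 217 with genistein, and 268 and 410 in controls. Control replicate 2 was far above all 13 other arrays, and the genistein change was -0.44 ± 0.166 (limma, adjusted p = 0.383). Nek2 had 81.4 and 81, 111 and 88.4 and 114 and 88.1 with estradiol, 101 and 104, 77.7 and 92.9 and 70.3 and 97.9 with genistein, and 105 and 144 in controls. Every genistein array was below both controls, at a change of -0.40 ± 0.165 (adjusted p = 0.409 by limma). Mad2l1 had 371 and 578, 546 and 530 and 484 and 459 with genistein and Kif11 355 and 502, 372 and 327 and 382 and 318, against 525 and 752 and 471 and 436 in controls. Their changes were -0.35 ± 0.16 and -0.27 ± 0.143 (limma, adjusted p = 0.446 and 0.496), and that of Aurkb was -0.21 ± 0.116 (0.512).

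Set directly against each other, estradiol stood below genistein for 39 of 43 genes over the mean of days, with a median log2 difference of -0.14 (all genes -0.01). This comparison does not use the controls. The exceptions, above 0, were Nek2, Melk, Bub1b and Smc2. All 6 estradiol arrays lay below all 6 genistein arrays for Cdk1, Ccnb2 and Cdc25c, 3 of 43 genes, where 0.438% of all genes did so. Without the 3 arrays of another deposited scale it was 6 of 43, against 2.87%. At an unadjusted p under 0.05 there were 17 lower and 1 higher of 71 member probe sets (25.4%), against 17.1% of all. The higher one was the second probe set of Incenp.

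The median difference was lowest on day 2, at -0.28 (39 of 43 below 0) and 20 lower and 0 higher at an unadjusted p under 0.05 (28.2%, against 6.72% of all). On day 3 the median was -0.12 (26 of 43 below 0), with 1 lower and 1 higher (2.82%, against 6.7% of all). On day 6 it was -0.09 (34 of 43 below 0), with 11 lower and 1 higher (16.9%, against 13.4%). Calls of member probe sets were 0 on each day by limma, where 0.081%, 0.0147% and 0.265% of all passed. Without genistein day 6 replicate 1, the array with the highest Gapdh ratio, 22 of 43 genes were below 0 on day 6.

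Over the mean of days 1 of 71 member probe sets (1.41%) was called between the treatments, the same share as the 1.41% of all probe sets. It was the second, dimmer probe set of Cks2. It had 992 and 761, 788 and 940 and 861 and 779 on days 2, 3 and 6 of estradiol, 1152 and 1257, 1137 and 1238 and 1115 and 1031 with genistein, and 1045 and 1262 in controls. All estradiol arrays lay below all genistein arrays. The level fell with estradiol relative to genistein by 0.43 on the log2 scale (a difference of -0.43 ± 0.0891, limma, adjusted p = 0.0318), or 0.74 times the genistein level. The call was lost without any one of 10 of the 14 arrays (difference of -0.496 to -0.371 and adjusted p of 0.0157 to 0.128 over the 14), with dim probe sets kept (0.0547) and without the 3 arrays of another deposited scale (0.272). The brighter probe set of Cks2 had 1250 and 801, 994 and 1063 and 939 and 837 with estradiol, 1103 and 1211, 1164 and 1140 and 1330 and 966 with genistein, and 1081 and 1300 in controls, where the treatments overlapped and the difference was -0.24 ± 0.112 (adjusted p = 0.298).

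Of the other members with the smallest p between the treatments, Aurka differed by -0.38 ± 0.0924, Cdk1 by -0.33 ± 0.0806, Pbk by -0.37 ± 0.0921 and Ccnb2 by -0.32 ± 0.0942 (limma, adjusted p = 0.0609, 0.0657, 0.0661 and 0.103). Aurka passed with quantile normalization (limma, adjusted p = 0.0456), where 2.82% of the member probe sets and 1.11% of all were called. Its difference was -0.4586 without genistein day 2 replicate 1 and -0.4154 without genistein day 6 replicate 2. Cenpa had 350 and 359, 374 and 350 and 440 and 372 on days 2, 3 and 6 of estradiol, 418 and 547, 522 and 408 and 623 and 486 with genistein, and 435 and 480 in controls. The genistein arrays reach above the controls and most estradiol arrays lie below them, with a difference of -0.39 ± 0.102 (adjusted p = 0.0762 by limma). Without genistein day 6 replicate 2 the differences of Cdk1 and Cenpa were -0.3789 and -0.453, and without estradiol day 2 replicate 1 that of Pbk was -0.4335. Ube2c had 1001 and 988, 1159 and 1070 and 1030 and 949 with estradiol, 1438 and 1353, 1045 and 1186 and 1335 and 1102 with genistein, and 1208 and 1243 in controls. Its difference was -0.26 ± 0.0738 (adjusted p = 0.0988).

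**Figure D5:**
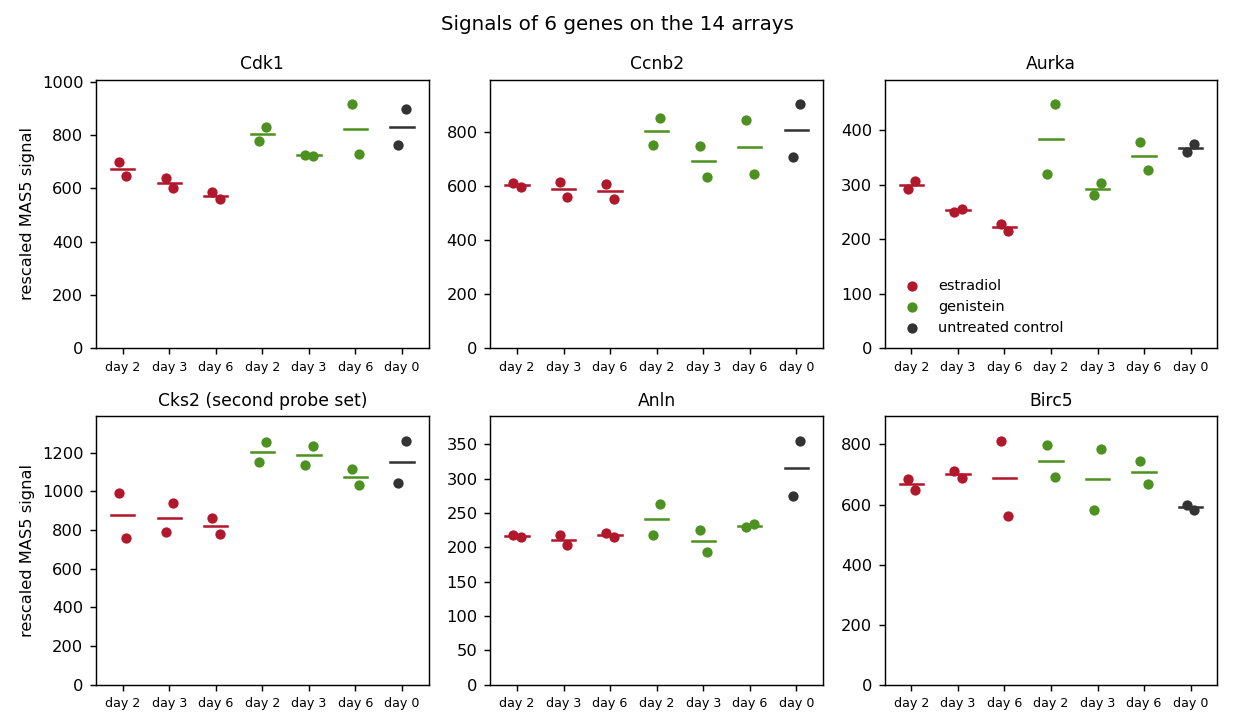
Rescaled MAS5 signals of Cdk1, Ccnb2, Aurka, the second probe set of Cks2, Anln and Birc5 on the 14 arrays, as points with the mean of each group as a line, for estradiol on days 2, 3 and 6, genistein on days 2, 3 and 6 and control on day 0. The estradiol points of Cdk1 and Ccnb2 lie below all others, those of Anln lie with the genistein points below the controls, and those of Birc5 overlap both.

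Change within a treatment over the days was tested without the controls. For estradiol 0 of 71 member probe sets passed limma's F test, where 0.0221% of all did, and 3 had an unadjusted p under 0.05 (4.23%, against 6.92% of all). For genistein 0 passed, where 0.0% of all did, and 9 had an unadjusted p under 0.05 (12.7%, against 5.79%). These were the probe sets of Plk1, Pbk, Nusap1, Prc1 (its brighter one), Racgap1, and both tested ones of Cdca3 and Cenpf, each lower on day 6 than on day 2. With genistein 35 of 43 genes were lower on day 6 than on day 2, and with estradiol 21 of 43. The same counts were not made over all genes.

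Of the 43 genes 19 had several tested probe sets, and these did not always stand alike. With estradiol all probe sets lay below 0 for 14 of the 19 genes and had opposite signs for 5, and with genistein for 10 and 8. Incenp gave -0.25 ± 0.118 on its brightest probe set with estradiol, -0.10 ± 0.142 on the second and 0.19 ± 0.239 on the third. Smc4 gave -0.14 ± 0.11, 0.29 ± 0.237 and -0.35 ± 0.238. For Prc1 the second probe set stood at -0.41 ± 0.112 with estradiol and -0.53 ± 0.112 with genistein, the first at -0.35 ± 0.139 and -0.04 ± 0.139, so that the 2 probe sets place genistein differently.

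The difference between members with and without a CHR near the start was not tested, and their values are a description. With estradiol the 23 tested genes with a CHR near the start had a median of -0.26 (23 of 23 below 0), and the 12 with a promoter and no CHR there a median of -0.26 (10 of 12 below 0). With genistein the same 2 sets had medians of -0.11 (lowest -0.44) and -0.10 (lowest -0.44), and for estradiol against genistein -0.15 (lowest -0.40) and -0.11 (lowest -0.25). Birc5 and Pttg1, the 2 members above 0 with estradiol, are among the 6 genes with neither CHR nor CCAAT box in their promoter, but the other 4, Mad2l1, Melk, Nusap1 and Ncaph, were below 0, and the median of the 6 was -0.24.

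Other genes of the cell cycle had medians between the list and all genes. Of 58 further mitosis genes tested, 41 were below 0 with estradiol (median -0.17), 36 with genistein (-0.05) and 40 for estradiol against genistein (-0.08). None of the 58 was called in any of these by limma, where 0.604%, 0.0368% and 1.41% of all probe sets were. At an unadjusted p under 0.05 there were 10 lower and 3 higher with estradiol, 8 lower and 5 higher with genistein and 10 lower and 1 higher between treatments. Of all 8212 genes 490 were then lower and 767 higher with estradiol, and 353 and 561 with genistein. Between treatments 17.1% of all probe sets passed in either direction. Zwint, a kinetochore protein, stood against the list at 0.55 ± 0.122 with estradiol (adjusted p = 0.0657 by limma), while Cenpc1, which binds Cenpa nucleosomes, stood at -0.60 ± 0.174, and Kif18a, a kinesin that shortens microtubules, at -0.77 ± 0.244. Wee1, the kinase that holds Cdk1 inactive, was at 0.87 ± 0.201 with genistein (limma, adjusted p = 0.236) and at -0.46 ± 0.142 for estradiol against genistein (adjusted p = 0.117).

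Of 44 DNA replication genes tested, 36 were below 0 with estradiol (median -0.20) and 31 with genistein (-0.10), where 48.5% and 45.4% of all genes were. By limma 0 were called in either. At an unadjusted p under 0.05 there were 11 lower and 0 higher with estradiol and 5 and 0 with genistein. Of all 8212 genes 490 were then lower and 767 higher with estradiol, and 353 and 561 with genistein. Those with the smallest p were Rpa3, a subunit of the single-strand binding protein (-0.56 ± 0.132), Dut, which keeps uracil out of DNA (-0.50 ± 0.14), and Gmnn, the licensing inhibitor geminin (-0.46 ± 0.135), with limma adjusted p of 0.0701, 0.119 and 0.131. Of 24 cyclins and brakes of the cycle 14 were below 0 with estradiol (median -0.04) and 0 were called. At an unadjusted p under 0.05 there were 4 lower and 2 higher, against 490 and 767 of all 8212 genes. Ccne2, a cyclin of S phase entry, stood at -0.75 ± 0.211, and the Cdk inhibitor Cdkn1a at 0.32 ± 0.137 (limma, adjusted p = 0.122 and 0.288).

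Summed marker signals of most cell lists stood above both controls on every estradiol array. Those of double-positive thymocytes and red blood cells overlapped the controls. Among all 8212 genes, 8.73% had all 6 estradiol arrays above both controls, which is a share of single genes and not of sums. With estradiol over the mean of days, 4228 of the 8212 genes had a log2 change above 0. Of the 8212, limma called 51 higher and 5 lower. For macrophages the summed signal of 12 genes ran from 4182 to 4587 on the estradiol arrays, from 3179 to 4140 with genistein and from 3137 to 3423 in controls, and with estradiol 10 of 12 were above 0, of which 3 (Vcam1, Mertk and Csf1r) were called higher by limma. For thymic epithelium 10 genes summed to 6888 to 8080 with estradiol, 6058 to 6880 with genistein and 5112 to 5568 in controls, with 10 of 10 above 0 and 4 called higher. In both lists all estradiol arrays stood above both controls. For adipocytes 6 genes summed to 1434 to 2363 with estradiol, 912 to 1421 with genistein and 1050 to 1058 in controls, with 5 of the 5 tested above 0 and 2 called. Fibroblast and matrix genes summed to 1461 to 1701 with estradiol, 1103 to 1327 with genistein and 1109 to 1275 in controls, with 6 of 6 tested above 0 and 0 called. These sums too were above both controls on every estradiol array, while genistein overlapped the controls. The 10 double-positive thymocyte genes summed to 11660 to 14150 with estradiol, 13180 to 15070 with genistein and 13250 to 13570 in controls. The 11 early thymocyte genes summed to 4852 to 5423 with estradiol, 4436 to 4770 with genistein and 4724 to 4841 in controls. The double-positive sums overlapped between estradiol and control, and the early thymocyte sums were all above control with estradiol, with 0 genes called. Mature T cell genes (7) summed to 2941 to 3323 with estradiol, 2797 to 3245 with genistein and 2421 to 2853 in controls. B and plasma cell genes (7) summed to 2621 to 3458 with estradiol, 2269 to 3387 with genistein and 2322 to 2509 in controls. Over all arrays Ighm alone had signals of 1686 to 2622. The median change of the 6 tested genes with estradiol was 0.23 on day 2, -0.05 on day 3 and -0.08 on day 6. On days 3 and 6, 4 of the 6 were below 0. The 3 red blood cell genes summed to 120.5 to 231 with estradiol, 121.6 to 225.5 with genistein and 183.7 to 200.8 in controls. No marker with a probe set was at 0 on any array. The part of these shifts in the lower levels of the mitosis and G2 genes was not tested.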

How the data were processed

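Thymus RNA of 14 pools of 3 mice was measured on Affymetrix arrays. The deposited values are MAS5 5.0 signal intensities of 22690 probe sets, per the submitters' processing notes. They were brought by the authors to a common scale on 11 arrays (2%-trimmed mean 150.04) and stand at 223.4, 300.3 and 334.6 on the other 3, for a reason not given in the sources used here. Here all arrays were rescaled to 150.04, 64 control probe sets were removed, the 40% of lowest mean signal (below a mean log2 level of 5.92, a signal of 44.5) were dropped, and log2(signal + 16) was fitted with limma 3.58.1 in R 4.3.3 (7 group means, trended eBayes, 7 residual degrees of freedom or 13.74 after moderation, Benjamini-Hochberg over 13575 probe sets, threshold 0.05). The fitting script was tested on simulated data. Groups are the labels' treatment and day. The number of arrays limits precision, and the mice of a group were treated in 1 study.

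In the platform annotation, updated by gene ID (20379 matched), 20380 probe sets name a single gene, 691 more than 1 and 1555 no gene. A gene is its brightest tested probe set unless stated. Full values are given for members called in any comparison, the 6 with the smallest p in each comparison over the mean of days, and Cdk1, Ccna2, Aurka, Plk1, Top2a and Cdc20. Ccnb1 was to be among these but had no probe set of its own. They are also given for Birc5, chosen after its values were seen, as were Pttg1 and the probe sets named for disagreement. Other lists name up to 4 genes of smallest p. Members and lists were chosen with earlier results of these data known, so no list was tested. Alternatives were the pseudocount (1, 64), no low-signal filter, quantile normalization, values as deposited, leaving out the 3 arrays at another scale or each array in turn, and a replicate block. The counts of members below 0, and of non-overlapping arrays without particular arrays, were added after the data were seen. Promoters are RefSeq's (GRCm38.p6), 250 bases before to 50 after the start, searched on both strands. Labels of the replicates do not say that a number marks a shared batch or litter.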

Additional observations from a re-analysis of the deposited data

How the results depend on the processing

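On the deposited scale, where 3 estradiol arrays stand 1.489 to 2.23 times higher, most comparisons that include those arrays turned direction. The median of the members was then 0.185 over the mean of days and -0.011 and 0.799 on days 2 and 3 against control, and 0.297, 0.003 and 0.937 against genistein, with 7, 24, 0, 0, 21 and 0 of 43 genes below 0. Member probe sets called became 5 over the mean of days and 64 on day 3 against control, 34 and 70 against genistein, and 68 for change among estradiol days. Of the 71 these were 7.04%, 90.1%, 47.9%, 98.6% and 95.8%, where 31.6%, 94.3%, 68.1%, 95.9% and 93.6% of all probe sets were called. Log2 changes against control became 0.0396 for Cdk1, 0.0591 for Aurkb, 0.0187 for Ccnb2, 0.203 for Ccna2, 0.336 for Plk1, 0.185 for Top2a and 0.185 for Cdc20. Against genistein they became 0.0549 for Aurka, 0.122 for Cdk1, 0.074 for Pbk, 0.0464 for Cenpa, 0.193 for Ube2c, 0.126 for Ccnb2 and 0.0156 for the called Cks2 probe set. The other scale of those arrays accounts for this by construction.

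The 1 member call between treatments became 0 with no low-signal filter, 2 with quantile normalization and 0 without the 3 arrays, where 125, 151 and 41 of all probe sets were called, against 191 otherwise, and the cause was not tested. Each array was also left out in turn, which leaves 1 array in its group, so member calls of those fits are given for a few comparisons only. Medians then ran from -0.36 to -0.129 for estradiol on day 6, from -0.215 to -0.004 for genistein over the mean of days and from -0.077 to 0.121, -0.288 to -0.096 and -0.268 to -0.034 on days 2, 3 and 6, and from -0.197 to -0.017 between treatments on day 6. With genistein the sign turned for Cdk1 (-0.198 to 0.0333) and Top2a (-0.269 to 0.0475) without control replicate 2, and for Plk1 (-0.0997 to 0.0518) without control replicate 1 or genistein day 6 replicate 2. Over all probe sets estradiol against control had 82 calls, 560 without control replicate 1 and 4 without control replicate 2, and genistein against control had 5, 335 and 1.

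The labels do not say whether the replicate numbers pair the samples, and the numbers were not treated as pairing. Deviations of same-numbered arrays correlated at -0.256 to 0.352 over 21 pairs of groups (5 over 0.1). With the replicate number as a block 1 member probe set was called between treatments and 0 in each comparison with control over the mean of days, and calls over all probe sets were 63, against 82, for estradiol, 4, against 5, for genistein and 145, against 191, between treatments. Medians were otherwise the same in direction with the pseudocounts of 1 and 64, quantile normalization and no filter.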
